A study of Homo sapiens with 6 samples.

Results

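The genes described here encode the subunits, regulators and assembly factors of the proteasome, the complex that degrades ubiquitin-tagged proteins. They were chosen by name, as the probe sets whose single gene symbol begins with PSMA, PSMB, PSMC, PSMD, PSME, PSMF or PSMG and a digit, which gave 37 probe sets of 8746, 1 for each of 37 genes. Of these, 36 belong to the proteasome. The 37th, PSMC3IP, encodes a recombination cofactor that matches the naming rule but is no proteasome subunit, and it is given apart. Total RNA of A549, a human lung adenocarcinoma cell line, was measured on 6 short-oligonucleotide arrays. The arrays named cisplatin 1 to 3 are of cells given 50 µM of cisplatin, which crosslinks DNA, for 1 hour, and those named control 1 to 3 are of cells given plain growth medium instead. Values of a group are listed throughout in the order of these numbers. Both groups were washed and kept for 10 hours in drug-free medium. The design text counts 3 independent experiments, all in this line and at this dose and time.

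In the proteasome, a barrel of stacked α and β rings, the 20S core, cuts proteins with active sites on certain β subunits. The 19S cap binds ubiquitin chains, removes them, unfolds the substrate with a ring of ATPases and feeds it into the core. Interferon-inducible β subunits can replace the constitutive ones to form the immunoproteasome, which favours peptides for MHC class I, and the 11S activators open the core in place of the cap. The transcription factor NFE2L1 (NRF1) is known to raise the subunit genes together, through antioxidant response elements, when proteasome activity is blocked.

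Both kinds of control element are short enough to be looked for in the promoters, and the stretches that hold their letters in 5 members are shown here. RefSeq (GRCh38.p14) gave windows of 250 bases before to 50 after a transcript start for 32 of the 36 proteasome genes. The letters of interferon response elements, GAAA and again GAAA with any 2 bases between (TTTC and TTTC where they lie on the other strand), stood in a window of 5 of the 32 (15.6%) and of 4.38% of 27305 genes. These 5 were PSMB8, PSMB10, PSME1, PSMB4 and PSMA4. The antioxidant response letters TGACNNNGC (GCNNNGTCA on the other strand) stood in 12 of the 32 (37.5%) and in 16.1% of all genes. PSMA4 and PSME1 held both sets of letters, PSMA4 in different windows. A gene with several windows counted where any of them matched, and the number of windows per gene was not matched in these shares. Each stretch below runs 5′ to 3′ on the gene's strand from 125 bases before to 25 after its start, and capitals mark the match it is shown for. The first 3 are the interferon-inducible members with a match, and the last 2 a core and a cap gene with antioxidant response letters. They lie at chr6:32844023-32844172 (minus strand) for PSMB8, chr16:67936826-67936975 (minus strand) for PSMB10, chr14:24136069-24136218 (plus strand) for PSME1, chr17:38752616-38752765 (plus strand) for PSMB3 and chr17:39980682-39980831 (plus strand) for PSMD3.
PSMB8: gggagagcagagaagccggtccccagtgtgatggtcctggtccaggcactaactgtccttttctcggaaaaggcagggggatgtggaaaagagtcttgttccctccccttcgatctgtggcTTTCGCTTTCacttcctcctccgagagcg
PSMB10: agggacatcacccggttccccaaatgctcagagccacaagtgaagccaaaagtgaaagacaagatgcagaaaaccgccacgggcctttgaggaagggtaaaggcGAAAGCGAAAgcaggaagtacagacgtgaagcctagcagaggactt
PSME1: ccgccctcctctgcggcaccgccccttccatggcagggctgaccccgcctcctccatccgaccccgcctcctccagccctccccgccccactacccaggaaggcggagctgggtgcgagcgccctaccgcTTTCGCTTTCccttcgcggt
PSMB3: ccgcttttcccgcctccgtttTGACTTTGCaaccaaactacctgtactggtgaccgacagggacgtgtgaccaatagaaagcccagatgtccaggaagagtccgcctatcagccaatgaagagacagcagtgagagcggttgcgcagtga
PSMD3: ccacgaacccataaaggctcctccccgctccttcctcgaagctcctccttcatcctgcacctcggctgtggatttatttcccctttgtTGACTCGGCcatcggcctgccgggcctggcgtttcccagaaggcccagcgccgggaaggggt
The PSME1 stretch also holds antioxidant response letters, TGACCCCGC, which are left in lower case there. A match describes letters only and is no sign of binding. Log2 folds (cisplatin minus control) were compared within the 32 genes with a window. This leaves out PSMA7, PSMB1, PSMB7 and PSMD4, with log2 folds of 0.085, 0.059, -0.052 and 0.081. The median was 0.069 over the 5 genes with interferon letters and 0.0056 over the rest of the 32. It was 0.036 over the 12 with antioxidant letters and 0.016 over the rest of the 32. These differences were not tested, and the standard error of a single gene's fold had a median of 0.11 over the 36 proteasome genes.

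The comparison of cisplatin with control asked which transcripts differed 10 hours after the exposure. No proteasome gene passed the test: of the 36, 0 were called higher and 0 lower in limma with Benjamini-Hochberg adjustment over 6559 tested probe sets, at an adjusted p of 0.05. All 37 were bright enough to be tested. Over all tested probe sets 0.29% were called. At an unadjusted p under 0.05 there were again 0 of the 36, where the share of all tested probe sets was 5.03%, and in 0 did the 3 cisplatin values lie beyond all 3 control values, where that share was 11%. An intensity is a mean over the whole culture, so fewer cells with a transcript and less transcript per cell cannot be told apart. Log2 folds are those of the fit on log2(intensity + 11.8), cisplatin minus control. They ran from -0.20 for PSMD3 to 0.14 for PSME1, with a median of 0.024 over the 36 genes and 0.040 over all tested probe sets. For CDKN1A, the p53 target that encodes p21, the same fit gave 2.42 (adjusted p = 4.74e-06).

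**Figure D1:**
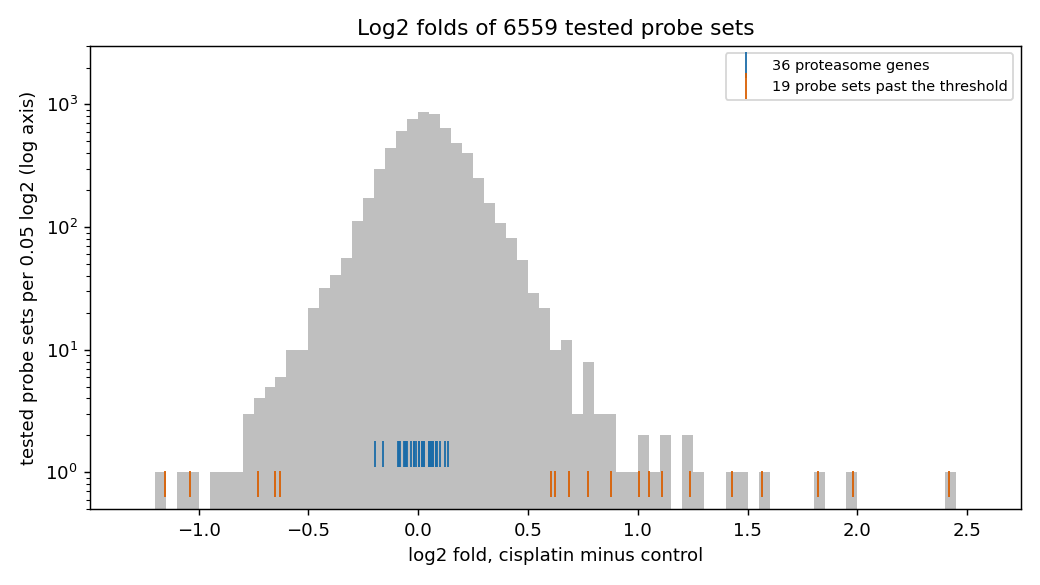
Histogram of the log2 fold (x axis, cisplatin minus control) of the 6559 tested probe sets, with their number per bin on a log y axis. Blue ticks stand for the 36 proteasome genes, between -0.20 and 0.14, and orange ticks for the 19 probe sets past the threshold, whose height has no meaning.

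How large a change these arrays leave room for follows from the interval of each fold. The 95% interval of the fit, taken gene by gene, lay within a 1.5-fold change in either direction for 36 of the 37 genes and within 1.25-fold for 22. Over all tested probe sets the same held for 66.5% and 13.4%. The one gene with a wider interval was PSMD3, a lid subunit of the cap, whose interval reached a 1.56-fold lower level. PSMA3, an α ring subunit, had the narrowest, which reached no farther than 1.14-fold. Standard errors ran from 0.068 to 0.20 on the log2 scale, with a median of 0.11 over the 36 genes and 0.17 over all tested probe sets. The 36 genes and all tested probe sets were not matched for intensity, on which the variance prior of the fit depends. Every measured cap gene read 189.8 or more on each array, where the array medians were 57.2 to 67.2. The dim genes PSMB8, PSMB9 and PSMB10 had standard errors of 0.16, 0.14 and 0.14. The part of intensity in the narrower intervals was not tested. Of the 36 folds 23 were above 0 and 13 below, and of all tested probe sets 60.5% were above 0. With arrays centred on their median the split was 6 above and 30 below, against 41.3% of all above. Quantile normalization gave 20 above and 16 below, against 49.8% of all above. Leaving out 1 array at a time gave 18 to 26 above. Median centring was the alternative with the fewest above, and the split has no fixed direction.

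**Figure D2:**
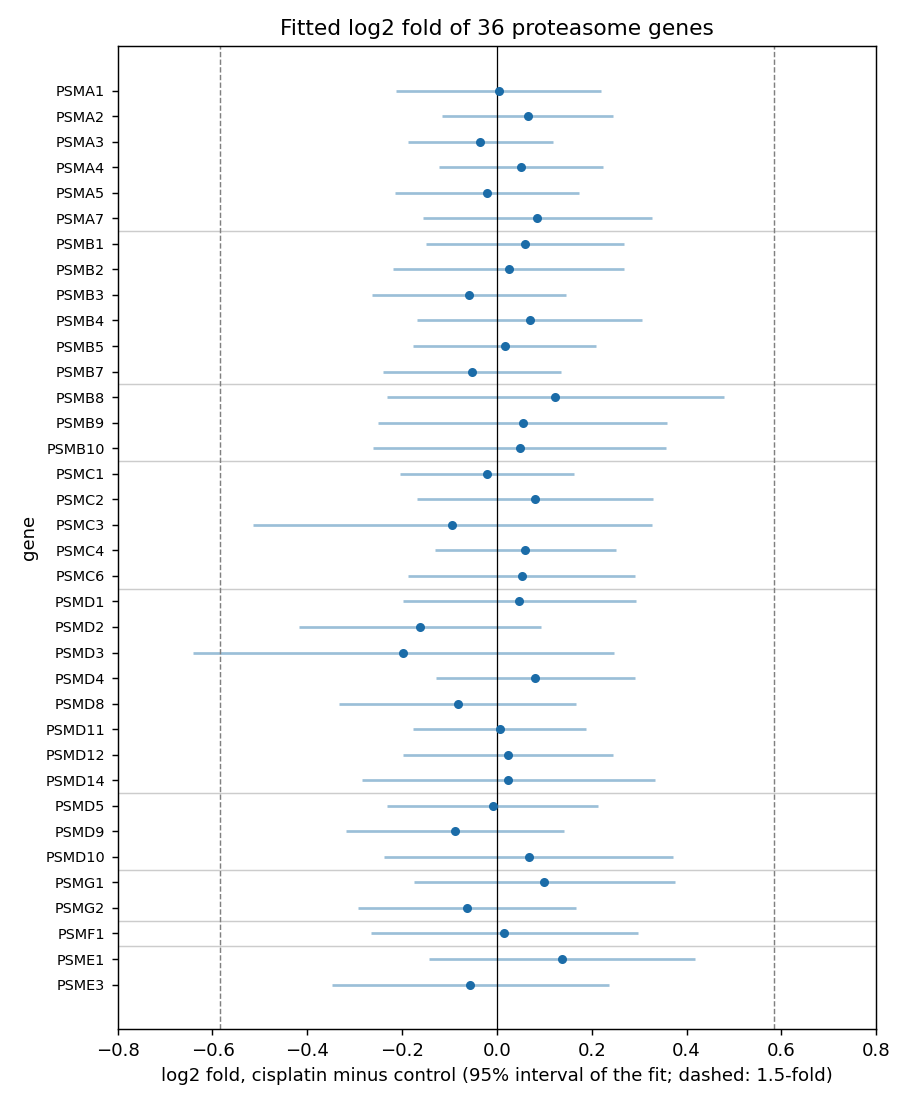
Fitted log2 fold (x axis, cisplatin minus control) of each of the 36 proteasome genes (y axis, ordered by place in the complex as α ring, constitutive and inducible β ring, 19S ATPases, 19S non-ATPases, 19S chaperones, 20S chaperones, PI31 and 11S). Points are estimates, bars 95% intervals and dashed lines 1.5-fold, which only the interval of PSMD3 crosses.

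The α ring forms the outer rings of the core and gates the entry to the active sites. All 6 measured members (PSMA1 to PSMA5 and PSMA7) missed the threshold, with log2 folds between -0.035 and 0.085. The extremes were PSMA7 and PSMA3. PSMA7 had intensities of 538, 465 and 484 without the drug and 509, 569 and 501 with it. Cisplatin 2 was the highest array, while control 1 lay above the other treated arrays, and the log2 fold was 0.085 (95% interval -0.16 to 0.33). PSMA2 read 1742, 1793 and 1788 without the drug and 2015, 1692 and 1877 with it, with a log2 fold of 0.065. Here cisplatin 1 was the highest array and cisplatin 2 the lowest, so the treated arrays spanned the controls. PSMA3 read 1714, 1842 and 1781 without the drug and 1728, 1723 and 1755 with it, and all 3 treated values lay inside the range of the controls (log2 fold -0.035, interval -0.19 to 0.12). PSMA5 had 1033 ± 72.9 in control and 1016 ± 21.2 after cisplatin (mean ± SD, n = 3 each; log2 fold -0.022). For PSMA1 control 1 stood at 1462 and the other 5 arrays between 1613 and 1819.7. PSMA4 had 1869 ± 138 in control and 1934 ± 66.5 after cisplatin, and both PSMA1 and PSMA4 had groups that overlapped.

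Among the constitutive β subunits are the catalytic ones, of which PSMB5 and PSMB7 were measured. PSMB5 carries the chymotrypsin-like site, the one that bortezomib blocks. Its intensities were 1717, 1625 and 1435 without the drug and 1536, 1668 and 1619.7 with it. The 3 treated arrays lay within the range of the controls, and the log2 fold was 0.017 (95% interval -0.18 to 0.21), whose farther end is a 1.16-fold change. PSMB7, with the trypsin-like site, read 1773, 1652 and 1496 without the drug and 1532, 1645 and 1558 with it. Again the treated arrays lay inside the control range (log2 fold -0.052, interval -0.24 to 0.14). The non-catalytic members PSMB1, PSMB2, PSMB3 and PSMB4 had log2 folds of 0.059, 0.025, -0.060 and 0.069. Of these PSMB4 read 969, 1226 and 996 without the drug and 1158, 1124 and 1051 with it. Its largest spread was among the controls, where control 2 was the highest of all 6 arrays and control 1 the lowest. PSMB1 read 1420.1, 1290.3 and 1446 without the drug and 1558, 1291 and 1489 with it, and PSMB3, whose promoter is printed above, 998, 1109.7 and 954 without the drug and 927, 1013 and 992 with it. In both the groups overlapped. The third catalytic gene, PSMB6, and the α ring gene PSMA6 had no named probe set and were not analysed here.

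The inducible β subunits are the ones that interferon-γ raises, and none passed the threshold here. PSMB8, which takes the place of PSMB5, read 64.0, 67.8 and 65.7 without the drug and 76.1, 59.2 and 85.1 with it. Cisplatin 1 and 3 were above all controls and cisplatin 2 below them, so the sign of the fold (0.12, 95% interval -0.23 to 0.48) was not shared by the treated arrays. Without cisplatin 2 the fold was 0.25, and without cisplatin 3 it was 0.025. PSMB9, the counterpart of PSMB6, read 108, 102 and 92.0 without the drug and 114, 97.9 and 102 with it (log2 fold 0.055). PSMB10, the counterpart of PSMB7, read 68.2, 66.7 and 62.0 without the drug and 67.7, 65.2 and 71.9 with it (log2 fold 0.048). Cisplatin 1 was the highest array for PSMB9 and cisplatin 3 for PSMB10, and cisplatin 2 was the lowest treated array for all 3 genes. The group means of PSMB8 and PSMB10, between 65.7 and 73.5, lie near the median intensity of the arrays, 57.2 to 67.2, and those of PSMB9, 100.5 and 105, above it. At such low values the offset of 11.8 makes a fitted fold smaller than the ratio of the intensities. The ratio of mean intensities was 1.12 for PSMB8, 1.04 for PSMB9 and 1.04 for PSMB10.

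**Figure D3:**
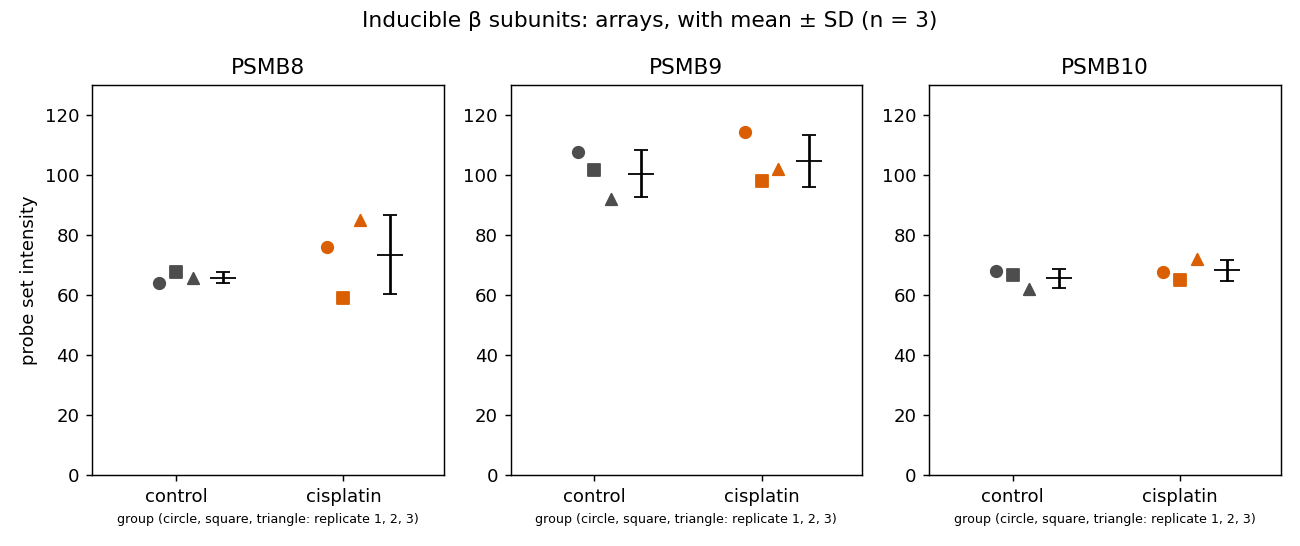
Probe set intensity (y axis, from 0) of the inducible β subunits PSMB8, PSMB9 and PSMB10 in control (grey) and cisplatin (orange) arrays, with the symbol giving the replicate number and bars the mean ± SD (n = 3). The groups overlap in each panel, and for PSMB8 the treated arrays spread from 59.2 to 85.1 around controls of 64.0 to 67.8.

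Whether inducible and constitutive subunits shifted against each other was read from the difference of their log2 values on the same array, for the 2 pairs with both genes measured. The log2 ratio of PSMB8 to PSMB5 averaged -4.37 ± 0.14 (SD, n = 3) in control arrays and -4.26 ± 0.27 (SD, n = 3) in treated ones, which differ by 0.11 with p = 0.6 in a two-sided exact permutation test. For PSMB10 to PSMB7 it was -4.41 ± 0.064 and -4.31 ± 0.10, which differ by 0.10 with p = 0.3 in the same exact test. Adjusted over the 2 pairs both values were 0.6, and 3 arrays against 3 cannot give a p below 0.1. In either pair cisplatin 1 and 3 were above all 3 controls and cisplatin 2 lay below at least 2 of them. A ratio of probe sets shows only a shift between arrays, since probe sets differ in how brightly they bind.

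The ATPases PSMC1 to PSMC6 form the ring of the cap that unfolds substrates. Of the 5 measured here (all but PSMC5) 0 passed, and their log2 folds lay between -0.094 and 0.081. PSMC2 read 1101, 1462 and 1364 without the drug and 1422, 1422 and 1286 with it. Control 1 was the lowest array, and cisplatin 3 was next. PSMC3 read 276, 302 and 221 without the drug and 189.8, 313 and 252 with it. It had the widest interval of the ATPases, -0.52 to 0.33 around -0.094, and its lowest and highest arrays were both treated ones. PSMC1 read 1346, 1442 and 1341 without the drug and 1304, 1465 and 1304 with it (log2 fold -0.021). PSMC4 had 961 ± 24.5 in control and 1003 ± 59.2 after cisplatin (log2 fold 0.059) and PSMC6 800.3 ± 84.5 in control and 829 ± 58.9 after cisplatin (log2 fold 0.052), both with overlapping groups.

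In the non-ATPase part of the cap, 0 of 8 measured genes passed, with log2 folds from -0.20 to 0.081. PSMD4, a receptor for ubiquitin chains, read 637, 705 and 651 without the drug and 684, 691 and 734 with it. Cisplatin 3 was the highest array and control 1 the lowest, with the other 4 between, and the log2 fold was 0.081 (95% interval -0.13 to 0.29). PSMD14, the deubiquitinase that cuts chains off the substrate, read 786, 1084 and 1103 without the drug and 1112, 923 and 964 with it. The low array was control 1, the other controls lay close to cisplatin 1, and the log2 fold was 0.024 (interval -0.29 to 0.33). PSMD2, a scaffold that docks ubiquitin-carrying shuttle proteins, had the lowest unadjusted p of the members, 0.187, in limma (adjusted p = 0.999). It read 767, 701 and 610.3 without the drug and 577, 668 and 604 with it. Cisplatin 1 and 3 were below all controls while cisplatin 2 was above control 3, and the log2 fold was -0.16 (interval -0.42 to 0.094).

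PSMD3, a lid subunit, had the lowest fold of the 36 genes and also the largest spread. Its intensities were 404, 432 and 254 without the drug and 282, 364 and 282 with it. Control 1, control 2 and cisplatin 2 were high and control 3, cisplatin 1 and cisplatin 3 low, a split that runs across the groups. The fold was -0.20 (SE 0.20, 95% interval -0.64 to 0.25), and it was -0.43 without control 3 and -0.059 without control 2, with an adjusted p of 0.977 and 0.999 in limma. PSMC3 and the lid gene PSMD8 had the same 3 arrays highest, PSMD8 with 1290.3, 1231 and 1015 without the drug and 1019, 1213 and 1095 with it (log2 fold -0.083). The remaining cap genes, PSMD1, PSMD11 and PSMD12, had log2 folds of 0.047, 0.0056 and 0.024. PSMD11, a lid subunit, read 1143, 1243 and 1139 without the drug and 1181, 1128 and 1228 with it, with controls and treated arrays interleaved. PSMD6, PSMD7 and PSMD13 had no named probe set.

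Assembly of the complex is helped by dedicated chaperones, of which 5 were measured, and 0 passed. PSMD5, PSMD9 and PSMD10 escort the ATPases into the base of the cap. PSMD10 (gankyrin), which also binds RB1 and MDM2, read 504, 722 and 677 without the drug and 667, 679 and 627 with it. Control 1 again stood low, the treated arrays lay between it and control 2, and the log2 fold was 0.067 (95% interval -0.24 to 0.37). PSMD9 read 618, 572 and 537 without the drug and 532, 515 and 573 with it (log2 fold -0.089), and PSMD5 had 553 ± 15.1 in control and 549.8 ± 36.6 after cisplatin (log2 fold -0.0089). PSMG1 and PSMG2 pair up to build the α ring. PSMG1 read 188, 196 and 205 without the drug and 226, 217 and 192 with it, so that cisplatin 1 and 2 were above all controls and cisplatin 3 was not (log2 fold 0.10, interval -0.17 to 0.37). PSMG2 read 695, 784 and 835 without the drug and 751, 689.6 and 770.0 with it (log2 fold -0.063). PSMF1, which encodes PI31, a protein that binds the core, had 210.0 ± 22.4 in control and 212 ± 5.08 after cisplatin and a log2 fold of 0.016. The recombination cofactor PSMC3IP read 101, 124 and 121 without the drug and 123, 96.3 and 106 with it and did not pass either (log2 fold -0.080, interval -0.41 to 0.25).

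Of the activators PSME1 and PSME3 were measured and 0 passed. PSME1, the inducible 11S subunit of the cytosol, read 518, 539 and 403 without the drug and 534, 536 and 525 with it. The treated arrays lay below control 2 and above control 1 and 3. The log2 fold of 0.14 (95% interval -0.14 to 0.42) was the highest of the 36 genes, and it was 0.0099 without control 3. PSME3, the nuclear 11S subunit, read 234, 216 and 184 without the drug and 209, 192 and 204 with it (log2 fold -0.056, interval -0.35 to 0.24). Its treated arrays lay between control 2 and control 3. PSME2, the partner of PSME1, was named only in a probe set that carries a further gene symbol, and no value is given for it. PSME4 had no named probe set.

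**Figure D4:**
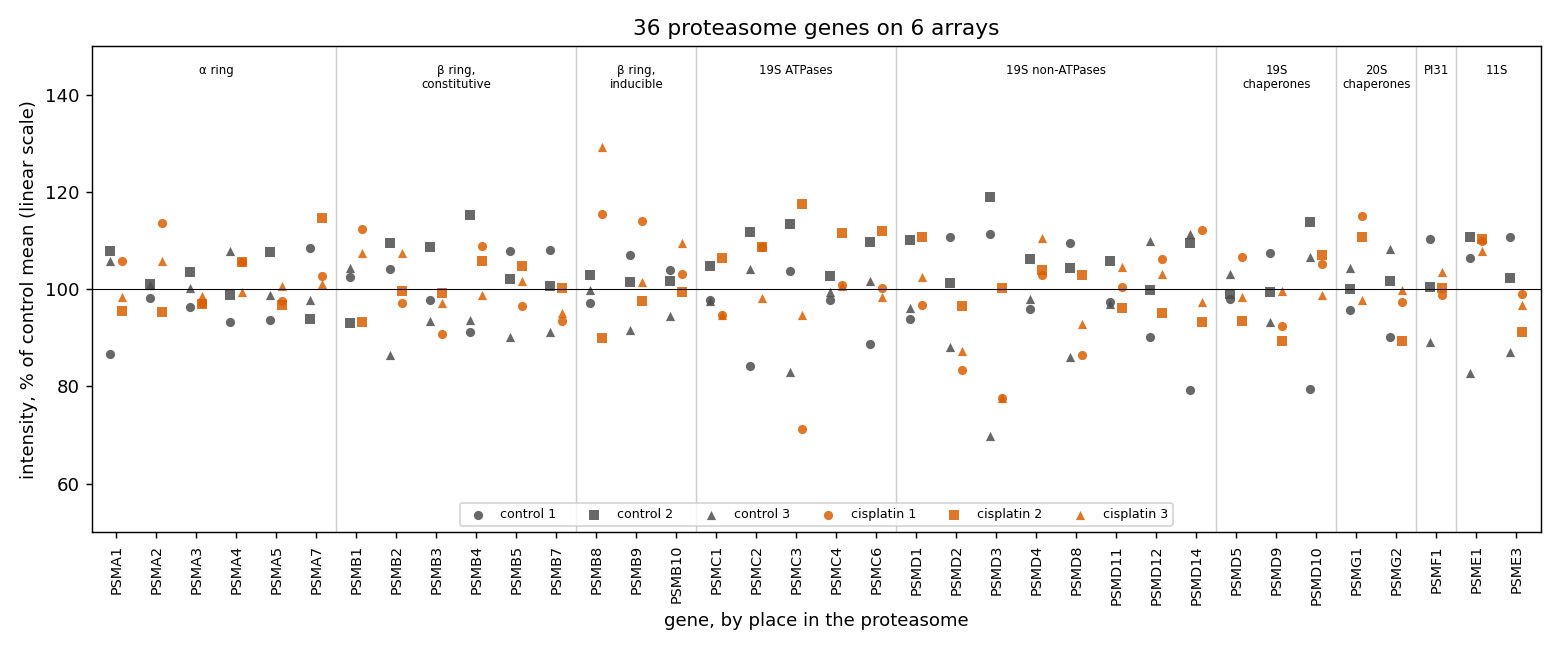
Intensity of the 36 proteasome genes (x axis) on each array as a percentage of the gene's control mean (y axis, linear), with control in grey and cisplatin in orange and the symbol giving the replicate number. Values run from 69.9% (PSMD3 on control 3) to 129% (PSMB8 on cisplatin 3), and the groups overlap for every gene shown.

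Among the controls, low and high values recurred on the same arrays across genes. Control 1 was the lowest control for 18 of the 36 genes and control 3 for 16, while control 2 was the lowest for 2 and the highest for 19. The treated arrays shared them more evenly. Their lowest value fell on cisplatin 1 for 12 genes, cisplatin 2 for 15 and cisplatin 3 for 9, and their highest on these arrays for 11, 15 and 10. The median deviation of the 13 cap genes from their own mean over 6 arrays was 0.11 on control 2 and 0.090 on cisplatin 2, and between -0.062 and -0.018 on the other 4 arrays (log2). For the 15 core genes it stayed between -0.064 and 0.025, and for all tested probe sets between -0.050 and 0.031. Over all tested probe sets it was -0.050, 0.028 and -0.013 on control 1 to 3. Control 1 was thus the lowest control and control 2 the highest there too, so this order is not particular to the proteasome genes. Lowest and highest arrays were not counted over all tested probe sets. The ACTB control transcript gave a 3′/5′ intensity ratio, which rises as RNA degrades, of 2.20 on control 1, 3.67 on cisplatin 1 and 2.67 to 2.98 on the other arrays. Its part in the deviations was not tested.

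**Figure D5:**
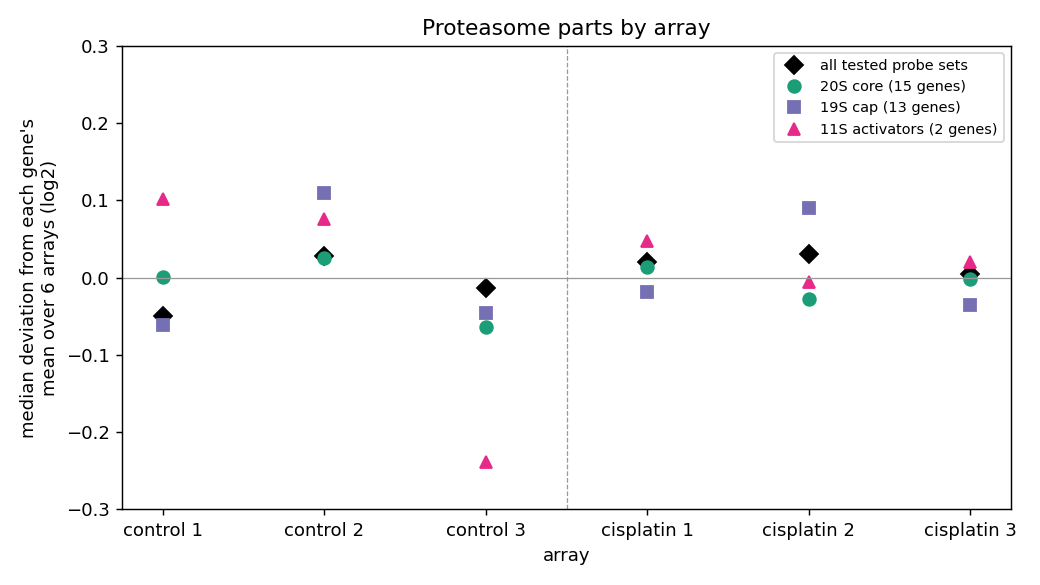
Median deviation of a set of genes from each gene's mean over 6 arrays (y axis, log2) on each array (x axis), for all tested probe sets (black), the 15 core genes (green), the 13 cap genes (purple) and the 2 activators (pink). The cap genes stand highest on control 2 and cisplatin 2, one array of each group, and the activators lowest on control 3.

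The proteasome's partners outside the naming rule were equally without a call. Of 13 tested genes of shuttle proteins, deubiquitinases, receptors, segregase factors, ubiquitin and regulators 0 passed in limma, 0 reached an unadjusted p under 0.05, and the median log2 fold was 0.0030. VCP, the segregase that extracts substrates, read 1062, 897 and 839 without the drug and 725, 866 and 906 with it (log2 fold -0.16, 95% interval -0.43 to 0.11). ADRM1, a ubiquitin receptor of the cap, read 500.2, 461 and 481 without the drug and 546, 491 and 547 with it. Cisplatin 2 alone of the treated arrays was below control 1 (log2 fold 0.13). The regulator NFE2L1 had 338 ± 31.4 in control and 309 ± 25.5 after cisplatin (log2 fold -0.12), and its relative NFE2L2 191 ± 84.2 in control and 169 ± 35.2 after cisplatin (log2 fold -0.087, interval -0.74 to 0.57), the widest interval of the list.

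MHC class I peptide loading, which receives the peptides of the immunoproteasome, gave 0 calls among 12 tested genes, 0 with an unadjusted p under 0.05 in limma and a median log2 fold of 0.049. IRF1, a transcription factor that drives the inducible subunits, read 89.2, 95.6 and 74.2 without the drug and 105, 96.8 and 115 with it. It was the 1 gene of this list whose treated values all lay above the controls, against 11% of all tested probe sets separated in either direction, and its log2 fold was 0.26 (95% interval -0.068 to 0.59, adjusted p = 0.999 in limma). HLA-B, a class I heavy chain, read 74.5, 58.2 and 56.2 without the drug and 92.9, 74.5 and 68.5 with it (log2 fold 0.27), with cisplatin 3 below control 1. Its probe set is of a kind that can bind other transcripts of the family. The COP9 signalosome, a relative of the proteasome lid, had 0 calls among 9 tested genes, 0 with an unadjusted p under 0.05 in limma and a median log2 fold of 0.022. COPS8 read 282, 382 and 369 without the drug and 472, 359.9 and 402 with it (log2 fold 0.25), and COPS4 had 318 ± 28.9 in control and 352 ± 14.2 after cisplatin (log2 fold 0.14), both with overlapping groups.

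The arrays carried the markers of the labelled line: the 10 epithelial and A549 genes all read above the array median on some array except EPCAM, at 33.3 ± 1.00 in control, and KRT18 read 5809.6 ± 488 there. The summed intensity of 4 blood cell markers was 85.8 to 156 in control and 121 to 168 after cisplatin, where CD14 read 28.1 to 61.4, CD3E 27.2 to 55.1, CD74 6.56 to 47.2 and PTPRC, the defining one, 7.84 to 21.5. The 3 surfactant genes of the alveolus summed to 108 to 127 and 125 to 166, SFTPC reading 40.9 to 61.4. SFTPB had 29.7 ± 7.04 in control and 49.1 ± 11.1 after cisplatin (log2 fold 0.55, adjusted p = 0.789 in limma). SFTPD had 41.6 ± 1.86 in control and 37.8 ± 10.4 after cisplatin (log2 fold -0.13). The 5 endothelial and stromal markers summed to 174 to 184 and 174 to 193, of which COL1A1 (85.9 to 109) and PECAM1 (53.8 to 85.6) made up most. VWF read 10.9 to 18.4, and COL3A1 and LUM were near 0. The samples are labelled as a cultured line, and whether any other cells had a part in the values of the inducible subunits was not tested. The 75th percentiles of the arrays spanned 0.15 on the log2 scale, and their number limits the precision of every value.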

How the data were processed

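Biotin-labelled target from total RNA of A549 cells was hybridised to 6 arrays, 3 per group. The authors deposited 1 linear intensity per probe set and array, from -512 to 9153. Of 52758 values 1.37% were at or below 0. How probes were summarised and arrays scaled: not given in the sources used here.

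Negative values were set to 0, and log2 was taken after adding 11.8, the 10th percentile of the positive values. Arrays were used as deposited because their 75th percentiles spanned 0.15, under a limit of 0.3. The 47 control probe sets were left out. Tested were the 6559 probe sets whose mean log2 reached the 25th percentile, in limma 3.58.1 under R 4.3.3 (lmFit, then eBayes with trend), two-sided, adjusted by Benjamini and Hochberg, threshold 0.05. The fit was checked on simulated data. Gene names came from the platform table, and all 37 symbols matched RefSeq. Figures used matplotlib 3.10.9.

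The members, lists, motifs and named genes were chosen with earlier results of these data known. Named were, in each class, up to 2 genes with the highest and 2 with the lowest fold, the catalytic and inducible β subunits, PSMD4, PSMD14 and PSME1, and in other lists the 2 with the lowest p. PSMA1, PSMA4, PSMB2, PSMC6, PSMD5, PSMD8, PSMD11, PSMD12, PSMF1, PSMG2, NFE2L1 and NFE2L2 were added after their values were seen. Alternatives covered scaling, offset, filter, variance prior, replicate block and leaving out arrays. A ratio of PSMB9 to PSMB6 had been planned and could not be made.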

Additional observations from a re-analysis of the deposited data

How the results depend on the processing

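None of the 37 genes, PSMC3IP included, passed the threshold under any of the 15 alternative fits, 555 values in all, and the lowest adjusted p was 0.756. Over all tested probe sets, against 19 calls, median centring of the arrays gave 11, a constant variance prior 8 and the replicate block 5 (with 0 proteasome genes). Leaving out 1 array at a time gave 6 to 18, of which 6 came without control 2, 8 when control 3 was dropped, 6 for cisplatin 1, 11 for cisplatin 2 and 7 for cisplatin 3. No label ties equal replicate numbers to a shared experiment, and deviations of equal-numbered arrays correlated at -0.56, -0.31 and -0.12. Leaving out control 1 and cisplatin 2 together was chosen after the data were seen. The 95% interval lay within 1.5-fold for 35 to 37 of the 37 genes under every alternative. PSMD3, with an unadjusted p of 0.0215 without control 3, was the 1 gene to go under 0.05 in any of the 6 fits without 1 array.

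The medians moved by more than the spread between arrays in a few fits. With arrays centred on the median they were -0.032 over all tested probe sets, -0.048 over the 36 genes and -0.024 over the core. With quantile normalization the median of all was -0.00088. Without both control 1 and cisplatin 2 it was 0.0034, and that of the cap -0.078. When each array was left out, the medians ranged from 0.017 to 0.058 over all, -0.0056 to 0.042 over the 36 genes, 0.0063 to 0.052 over the core (lowest without cisplatin 1), -0.037 to 0.046 over the cap and -0.068 to 0.10 over the activators. The difference in log2 ratio then ran from 0.014 to 0.26 for PSMB8 to PSMB5 and 0.058 to 0.16 for PSMB10 to PSMB7.

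None of the log2 folds that took the other sign was past the threshold. With arrays centred on the median they were -0.0054 for PSMD10, -0.013 for PSMC4, -0.020 for PSMC6, -0.025 for PSMD1, -0.067 for PSMD11, -0.048 for PSMD12, -0.048 for PSMD14, -0.068 for PSMA1, -0.0072 for PSMA2, -0.022 for PSMA4, -0.014 for PSMB1, -0.047 for PSMB2, -0.0029 for PSMB4, -0.055 for PSMB5, -0.024 for PSMB10, -0.017 for PSMB9 and -0.056 for PSMF1. With quantile normalization they were -0.040 for PSMB10, -0.022 for PSMB9 and -0.035 for PSMF1. Without control 1 and cisplatin 2 they were -0.11 for PSMD10, 0.019 for PSMD5, -0.062 for PSMC2, -0.0043 for PSMC4, -0.087 for PSMC6, -0.046 for PSMD1, -0.0011 for PSMD12, -0.078 for PSMD14, -0.065 for PSMA1, -0.012 for PSMA4, -0.0021 for PSMB4 and 0.049 for PSME3. Leaving out each array in turn gave -0.096 to 0.061 for PSMA1, -0.067 to 0.032 for PSMA5, -0.076 to 0.093 for PSMB2, -0.11 to 0.0017 for PSMB3, -0.056 to 0.073 for PSMB5, -0.12 to 0.0055 for PSMB7, -0.0041 to 0.10 for PSMB9, -0.077 to 0.013 for PSMC1, -0.038 to 0.16 for PSMC2, -0.26 to 0.086 for PSMC3, -0.030 to 0.12 for PSMC6, -0.0024 to 0.12 for PSMD1, -0.087 to 0.17 for PSMD10, -0.024 to 0.046 for PSMD11, -0.047 to 0.094 for PSMD12, -0.13 to 0.11 for PSMD14, -0.059 to 0.034 for PSMD5, -0.15 to 0.017 for PSME3 and -0.060 to 0.086 for PSMF1. With 1 probe set a gene, the mean over probe sets changes no value.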
